A study of Macaca mulatta with 449 samples.

Results

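Bulk RNA of the entorhinal and perirhinal cortex (PA) was compared with that of the temporal neocortex in the same brains of 8 rhesus macaques. PA was represented by the 8 libraries carrying that label, 1 per animal, of 408 RNA-seq libraries with counts. The temporal neocortex was represented by 32 libraries from the occipito-temporal gyrus (OTG), the inferior temporal gyrus (ITG), the superior temporal gyrus (STG) and the temporal polar gyrus (TPG), whose counts were summed over the 4 gyri within each animal. The animals were healthy, and the labels name no treatment and no altered allele in either group. Animals 4, 7, 8 and 10 were young (3.2, 4, 3.8 and 5 years) and animals 2, 3, 6 and 11 were mid-aged (10, 10, 10 and 9.8 years), with 2 males and 2 females in each age stage. Each sample was a small piece of tissue dissected by hand, whose content of cortical layers and white matter was not given, and PA held the entorhinal and the perirhinal cortex together, so that neither layers nor the pair of areas can be told apart. In such bulk samples, fewer cells of a type and less RNA per cell cannot be told apart either.

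The entorhinal cortex is the main gateway between the neocortex and the hippocampus, and the perirhinal cortex beside it takes part in recognising objects. The entorhinal cortex is periallocortex, a transitional type of cortex with an ill-defined or missing granular layer and with large reelin-positive projection neurons close to the surface. The temporal gyri are largely layered neocortex that processes sound, faces and objects, and the temporal pole is the most limbic of them.

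The libraries of PA held 8667179 to 13436456 counts, and the temporal sums held 41582671 to 58326163. Of 17149 genes tested, 917 were higher in PA (5.35% of those tested) and 562 were lower (3.28%) at FDR < 0.05 and a fold above 2. Without the fold threshold, 4045 genes were higher (23.6%) and 4031 were lower (23.5%), and above a fold of 4 the counts were 235 (1.37%) and 147 (0.857%). The median log2 fold change (log2FC) over all genes tested was 0.00098. In 726 genes (4.23%) all 8 PA libraries were above all 8 temporal sums, and in 844 genes (4.92%) all 8 were below, so that the groups did not overlap in 1570 genes (9.16%). Among the 51 sub-regions of the series, PA had the highest mean of all in 91 of the 917 higher genes (9.92%, against 1.25% of all genes tested). The pituitary (PIT) had it in 178 (19.4% against 17.3%), the olfactory bulb (OB) in 80 (8.72% against 4.27%), the corpus callosum (CC) in 65 (7.09% against 14.3%), the dentate gyrus (DG) in 52 (5.67% against 3.73%) and the amygdala (AMY) in 51 (5.56% against 2.16%). Of the 32 cortical regions, PA was the highest in 814 of the 917 genes (88.8% against 18.1%). Among the 562 lower genes, PA had the lowest mean of all 51 sub-regions in 23 (4.09% against 1.14%), and the lowest of the 32 cortical regions in 429 (76.3% against 16.8%). Since the same PA libraries chose these genes, the shares are a description.

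The labels were first checked with RAB44, which encodes a small GTPase of the Rab family, and KRT5, which encodes a basal keratin. Both had been put forward as PA markers from these same samples, so that their levels are a description. RAB44 had 3.72, 5.02 and 11.6 CPM (counts per 1000000 counts of the library) in the lowest, the median and the highest PA library, against 0.130, 0.268 and 0.438 CPM in the temporal sums. KRT5 had 3.32, 4.58 and 8.84 CPM in PA against 0.608, 0.951 and 1.36 CPM in the temporal sums. The groups did not overlap for either gene, and PA had the highest mean of the 51 sub-regions for both. The next sub-region was PIT at 0.957 CPM for RAB44 and the inferior frontal gyrus (IFG) at 1.43 CPM for KRT5. The log2FC was 4.33 ± 0.235 (SE, FDR 2.89e-09) for RAB44 and 2.38 ± 0.225 (FDR 8.05e-07) for KRT5. Against each of the 4 gyri, RAB44 was higher by a log2FC of 4.11 (TPG) to 4.50 (ITG) and KRT5 by 1.99 (TPG) to 2.67 (ITG).

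**Figure D1:**
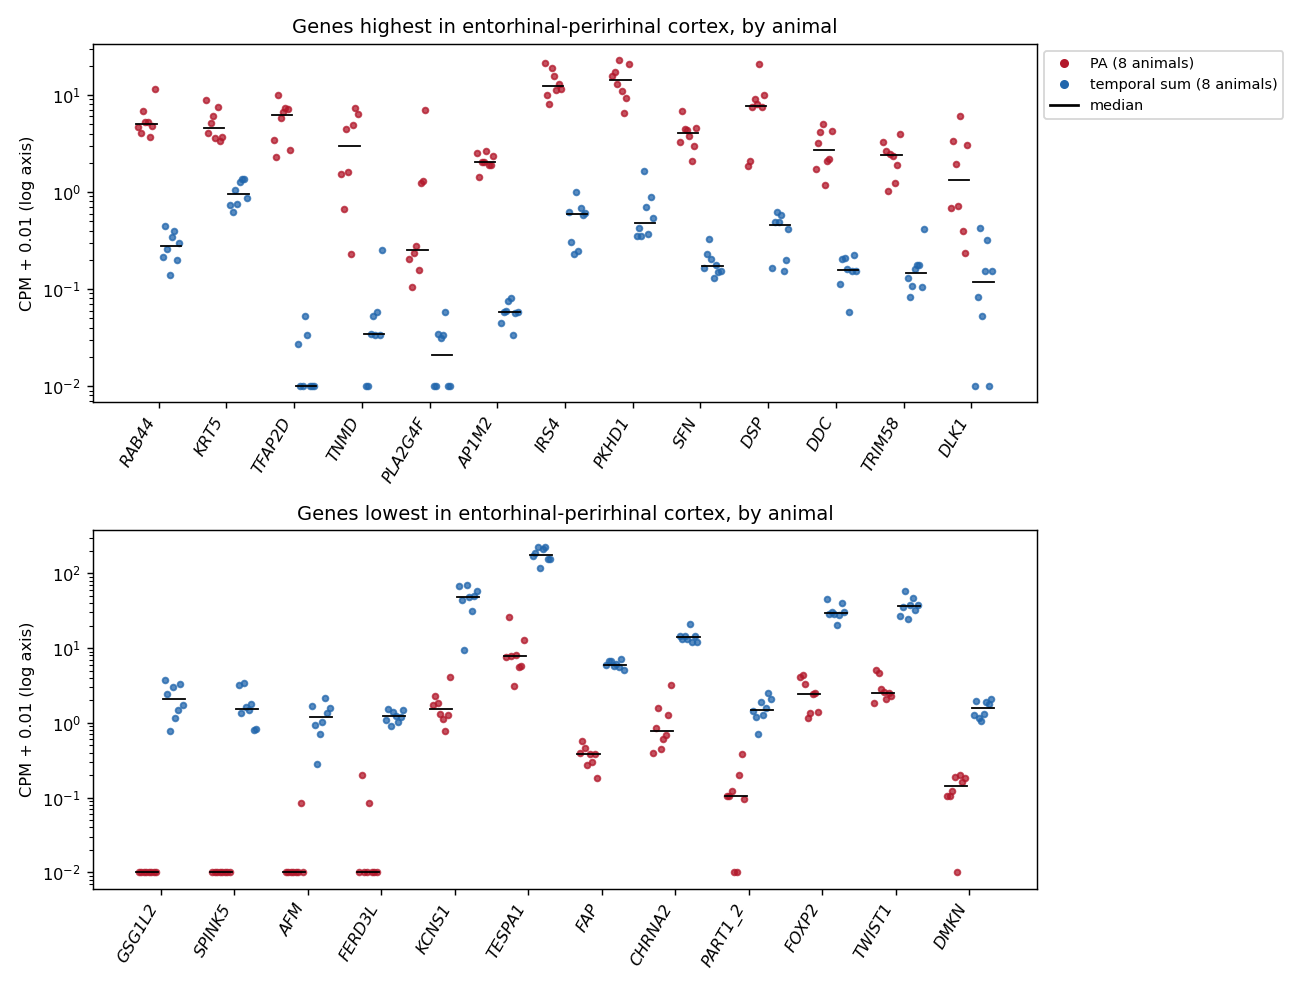
Levels (CPM + 0.01, log axis) of RAB44, KRT5 and the leading genes of each direction in the 8 PA libraries (red) and the 8 temporal sums (blue), with 1 point per animal and a black bar at the median. RAB44, KRT5, TFAP2D, AP1M2 and TESPA1 showed no overlap between the groups, whereas TNMD and DLK1 overlapped.

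The genes with the largest folds in favour of PA were mostly near 0 in the temporal neocortex. TFAP2D, a transcription factor of the AP-2 family, had 2.28, 6.23 and 10.1 CPM in the lowest, the median and the highest PA library. In the temporal sums it had 4 counts in all against 507 in PA, a ratio of 515 after scaling for depth (95% interval 199.8 to 1896; such intervals cover counting error only). Of the other sub-regions AMY alone had a higher mean (6.60 CPM), and the test against AMY was not passed (log2FC -0.26, FDR 0.297), whereas the hippocampus (DG, CA1 and CA3 summed) had 0.00367 CPM. AP1M2, the mu subunit of an epithelial AP-1 clathrin adaptor, lay at 1.42, 2.03 and 2.66 CPM in PA and at 0.0239, 0.0484 and 0.0718 CPM in the temporal sums (log2FC 5.32 ± 0.246). It was thus low but steady in PA, and only PIT had a higher mean (54.6 CPM). IRS4, an adaptor of insulin and growth factor receptors, had 13.7 ± 4.54 CPM (SD, n = 8) in PA and 0.525 ± 0.264 CPM in the temporal sums, a log2FC of 4.72. PKHD1, which encodes the ciliary protein fibrocystin, had 14.5 ± 5.61 against 0.650 ± 0.445 CPM, and was higher in the putamen (PUT, 79.8 CPM) and the caudate nucleus (CN, 37.5 CPM) than in PA. DDC, the decarboxylase that makes dopamine and serotonin, had 2.98 ± 1.38 against 0.149 ± 0.0544 CPM, with its peak in the substantia nigra (SN, 288 CPM). TRIM58, a ubiquitin ligase, had its highest mean of the 51 sub-regions in PA, like RAB44 and KRT5 (2.35 ± 0.977 against 0.160 ± 0.106 CPM in the temporal sums).

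Several leading genes differed between animals within PA. TNMD, which encodes the membrane protein tenomodulin, ranged from 0.221 to 7.31 CPM in PA and was highest in animals 10, 11, 8 and 4. PLA2G4F, a cytosolic phospholipase, had 6.99 CPM in animal 11 and 0.0948 to 1.28 CPM in the other 7 PA libraries. These are the same animals whose PA library held most RNA of meningeal markers (given further on), and their part in these values was not tested. In the 4 other animals alone, the log2FC of TNMD was 5.67, against 5.98 in all 8, and PLA2G4F (5.78 in all 8) did not pass the filter on low counts. DLK1, a membrane ligand related to Notch ligands, had 0.226 to 6.13 CPM in PA and 0 to 0.420 CPM in the temporal sums, with an overlap.

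Epithelial genes appeared repeatedly among the higher genes. For this and the other gene lists, higher and lower mean FDR < 0.05 at any fold, which 23.6% and 23.5% of all genes tested passed. Of 12 tested keratin and epithelial genes, 7 were higher in PA and 1 was lower, with a median log2FC of 1.28. KRT5, put forward as a PA marker from these same samples, is among the 7. Against TPG alone, 6 of 11 were higher and 1 was lower (median log2FC 0.75), beside 12.3% and 11.4% of all genes. SFN, the 14-3-3 protein sigma of squamous epithelia, had 2.10, 4.04 and 6.83 CPM in PA (lowest, median and highest) and 0.120, 0.161 and 0.321 CPM in the temporal sums. DSP, which encodes the desmosomal plaque protein desmoplakin, had 8.33 ± 5.85 against 0.381 ± 0.192 CPM and is known as a marker of dentate granule cells, but it was at 0.336 CPM in the hippocampal sum here. In PA, DSP ranged from 1.83 CPM (animal 2) to 20.7 CPM (animal 8). KRT18 (log2FC 2.34), EPCAM (2.51) and the cadherin gene CDH1 (1.21) were also higher, at means of 1.44, 0.931 and 1.74 CPM in PA. EPCAM was at 0 CPM in the PA library of animal 8, below the temporal sum of that animal, and at up to 2.03 CPM in the others. Without animals 4, 8, 10 and 11, 7 of the keratin and epithelial genes were higher.

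The genes with the largest folds in the other direction were at or near 0 in PA. Both GSG1L2, of the GSG1-like family of membrane proteins, and SPINK5, an inhibitor of serine proteases, had 0 counts in all 8 PA libraries. With a floor of 3 counts over the 8 PA libraries, GSG1L2 was at least 66.3-fold lower and SPINK5 at least 54.3-fold lower. GSG1L2 had 0.765 to 3.68 CPM in the temporal sums and was highest in the insula (INS, 4.47 CPM). AFM, a vitamin E binding protein, had 1 count in PA and 433 in the temporal sums, a ratio of 107 (95% interval 19 to 4222). FERD3L, a basic helix-loop-helix factor, had 3 counts in PA and 432 in the temporal sums, a ratio of 35.5 (12.1 to 173). Its neighbour in the genome, the related factor TWIST1, had 1.83, 2.54 and 5.03 CPM in PA against 24.3, 36.1 and 57.8 CPM (log2FC -3.65 ± 0.139). Since strand options of the counting were not stated, reads of close or overlapping genes may not be fully separated.

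KCNS1, a silent potassium channel subunit that modifies Kv2 channels, had 0.763, 1.53 and 4.11 CPM in PA and 9.50, 48.8 and 69.5 CPM in the temporal sums (log2FC -4.72 ± 0.231). TESPA1, a signalling protein first described in thymocytes, had 3.09, 7.74 and 26.1 CPM against 119, 178 and 227 CPM. PA was below all 31 other cortical regions for both, but for TESPA1 it was above AMY (1.16 CPM, log2FC 2.94) and the hippocampus (0.494 CPM, log2FC 4.21). CHRNA2, a nicotinic receptor subunit, had 1.13 ± 0.946 against 14.3 ± 2.77 CPM, and FAP, a cell surface protease, had 0.360 ± 0.121 against 6.09 ± 0.669 CPM. DMKN, which encodes the secreted protein dermokine, was lower than the temporal sum (log2FC -3.63), but the test against TPG was not passed (log2FC 0.17, FDR 0.891). PART1_2 was lower as well, with 0.120 ± 0.121 against 1.57 ± 0.555 CPM.

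Genes of cortical layers split into groups of opposite direction. Of 21 tested, 10 were higher and 9 were lower, and the median log2FC was 0.02. The lower genes included RORB, a nuclear receptor of layer IV neurons, with 1.15, 2.73 and 8.04 CPM in PA and 12.8, 45.7 and 56.1 CPM in the temporal sums. FOXP2, a forkhead factor of deep-layer corticothalamic neurons, had 1.15, 2.44 and 4.36 against 20.4, 29.5 and 45.1 CPM. Both genes showed no overlap between the groups, and PA was lower than all 31 other cortical regions. THEMIS, a marker of some deep-layer neurons, had 0 counts in all PA libraries and was at least 21.3-fold lower. The higher genes included BCL11B (CTIP2), a factor of subcortically projecting layer V neurons, with 5.76, 11.1 and 18.3 CPM against 1.41, 2.82 and 3.75 CPM. HTR2C, the serotonin 2C receptor, and OPRK1, the kappa opioid receptor, were higher by a log2FC of 2.00 ± 0.201 and 1.78 ± 0.213. Of 8 genes of the claustrum and the deepest layer, 6 were higher and 0 were lower, with LXN at a log2FC of 0.88 and CCN2 at 0.96.

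Limbic and entorhinal genes were more often higher than lower. Of 15 tested, 8 were higher and 2 were lower than in the temporal sum, with a median log2FC of 0.53. Against TPG alone, 6 were higher and 3 were lower, with a median log2FC of 0.16 (12.3% and 11.4% of all genes were higher and lower there). RELN, which encodes the secreted glycoprotein reelin of layer II entorhinal projection neurons and of some interneurons, had 165, 289.6 and 453 CPM in PA and 79.1, 134 and 167 CPM in the temporal sums. It was higher in 8 of 8 animals, with a slight overlap of the groups, by a log2FC of 1.25 ± 0.0716. NR2F2 (COUP-TFII), a nuclear receptor of caudal and limbic cortex, had 95, 139 and 172 CPM against 35.6, 41.9 and 54.7 CPM, and AMY alone had a higher mean (269 CPM). NTNG1, a synaptic adhesion protein, was higher in PA than in the temporal sum by a log2FC of 1.03, than in AMY by 2.75 and than in the hippocampus by 1.68. WFS1, the wolframin gene of the endoplasmic reticulum, was higher by a log2FC of 0.72, with a within-animal ratio close to 0 in animal 7, but the test against TPG was not passed (log2FC 0.05, FDR 0.803). The other direction was shown by CADPS2, a protein of dense-core vesicle release, with 27.7, 40 and 56.6 CPM in PA against 162, 194 and 253 CPM. LMO3, a LIM-only transcriptional cofactor, was lower too (log2FC -0.82).

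Among 30 regional transcription factors of the cortex, 7 were higher and 11 were lower, with a median log2FC of -0.13. Besides NR2F2, LHX9 was higher (2.90 against 1.09 CPM). ID2 (log2FC -1.46), TSHZ3 (-1.26) and BHLHE40 (-1.71) were lower without overlap of the groups. BHLHE40, a repressor that takes part in the circadian clock, had 87.8 ± 16.3 CPM in PA and 287 ± 44.1 CPM in the temporal sums.

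**Figure D2:**
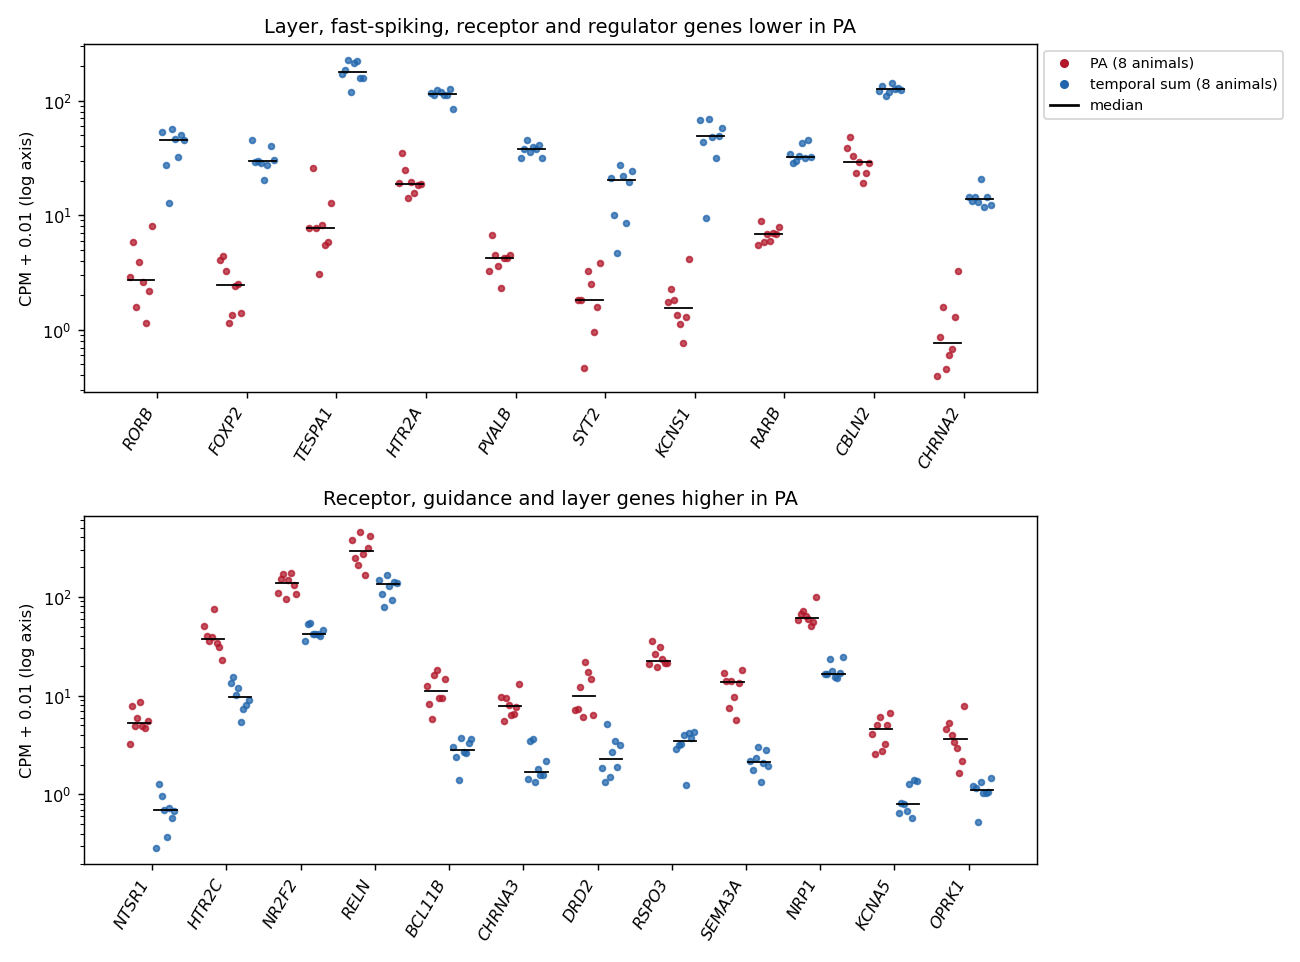
Levels (CPM + 0.01, log axis) of 10 genes lower in PA and 12 genes higher in PA, with the 8 PA libraries in red, the 8 temporal sums in blue and a black bar at the median. RELN was the only one of these genes whose groups overlapped.

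Genes of fast-spiking neurons were nearly one-sided. Parvalbumin interneurons and long-range projection neurons fire rapidly with the help of Kv3 potassium channels, sodium channel subunits and fast release proteins. Of 21 tested genes of this kind, 18 were lower in PA (against 23.5% of all genes) and 1 was higher, and the median log2FC was -0.94. PVALB, which encodes the calcium buffer parvalbumin, had 2.29, 4.21 and 6.73 CPM in PA and 31.4, 37.6 and 45.8 CPM in the temporal sums, a log2FC of -3.19 ± 0.127. SYT2, the fast calcium sensor of their terminals, had 0.452, 1.81 and 3.84 against 4.66, 20.4 and 27.5 CPM. Both genes showed no overlap and were lower in 8 of 8 animals. The Kv3 channel gene KCNC1 (log2FC -1.33) and the sodium channel gene SCN1A (-1.37) were lower as well. Only BCAN, which encodes the perineuronal net proteoglycan brevican and is also made by glia, was higher (log2FC 0.67). With OTG left out of the temporal sum, the median log2FC of the 21 genes was -0.57. The summed level of 12 general neuron markers was also lower in PA in 8 of 8 animals. It was at 11859 to 13397 CPM against 15175 to 17710.2 CPM in the temporal sums. SNAP25, with a median of 4192 CPM in PA against 5836 CPM, weighs heavily in this sum. Of the 12 members, 5 were higher and 6 were lower. The part of the summed level in the values of the fast-spiking and the interneuron genes was not tested.

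The lower level was not shared by all interneuron genes. Of 27 tested, 16 were lower and 6 were higher, with a median log2FC of -0.37. VIP, the peptide of disinhibitory interneurons, had 8.74, 11 and 20 CPM in PA against 26.5, 41.3 and 53.4 CPM, and TAC1, the precursor of substance P, had 13.8 ± 3.98 against 39.8 ± 9.54 CPM. HTR3A, the ion channel receptor of serotonin in superficial interneurons, was lower as well (log2FC -1.75), most so in animal 10. The members higher in PA included RELN, CCK, the cholecystokinin gene (log2FC 0.43), and NPY, the neuropeptide Y gene (log2FC 0.68). The vesicular GABA transporter SLC32A1 (log2FC -0.64) and the somatostatin gene SST (-0.27) were among the lower members.

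Neuropeptides and their receptors changed in both directions. Of 23 neuropeptide genes, 12 were higher and 9 were lower (median log2FC 0.43). The median was 0.23 with OTG left out of the temporal sum and 0.22 without animals 4, 8, 10 and 11, and 7 genes were higher without the block by animal. PDYN, the precursor of dynorphins, had 53.7, 159 and 325 CPM in PA and 46.3, 51.8 and 77.1 CPM in the temporal sums. CBLN2, a synapse organiser released from excitatory neurons, had 19.2, 28.9 and 48.5 CPM against 110.4, 125 and 143 CPM. NTS, the neurotensin gene, had 5.03 CPM in the PA library of animal 3 and 0 to 0.369 CPM in the others, so that its log2FC of 3.66 rests largely on that animal. Of 26 receptor genes, 8 were higher and 8 were lower (median log2FC -0.06). NTSR1, the main neurotensin receptor, had 3.27, 5.24 and 8.56 CPM against 0.275, 0.683 and 1.26 CPM, without overlap. AMY had 5.77 CPM, and the test against it was not passed (log2FC 0.0027, FDR 0.995). The somatostatin receptor gene SSTR1 was higher (log2FC 1.18) and the natriuretic peptide receptor gene NPR3 was lower (-1.72).

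Receptors of serotonin, dopamine, noradrenaline and acetylcholine were lower in 14 and higher in 9 of 33 tested (median log2FC -0.17), and subtypes of the same transmitter went opposite ways. For serotonin, HTR2C had 22.9, 37.5 and 74.8 CPM in PA and 5.38, 9.57 and 15.6 CPM in the temporal sums, with the largest ratio in animal 7, whereas HTR2A had 14.2, 18.9 and 34.6 CPM against 85.4, 114 and 127 CPM. For dopamine, DRD2 had 11.6 ± 5.90 against 2.62 ± 1.27 CPM, whereas DRD1 had 20.3 ± 4.91 against 52.4 ± 5.80 CPM. For acetylcholine, CHRNA3 had 8.28 ± 2.41 against 2.11 ± 0.904 CPM, whereas CHRNA2, above, was lower. These 6 genes showed no overlap between the groups. Among striatal projection neuron markers 5 of 12 were higher and 3 were lower, and ADORA2A and PPP1R1B, which define such neurons, were at 3.69 against 3.57 and at 118 against 123 CPM, without passing the test. The summed level of the 12 markers was higher in PA in 8 of 8 animals (483 to 699 CPM against 409.6 to 488 CPM in the temporal sums). The peptide gene PDYN is 1 of them, at a median of 159 CPM in PA against 51.8 CPM. The median log2FC of the 12 was -0.01. The part of the summed level in the values of these receptors was not tested.

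Glutamate receptors differed less. Of 25 tested, 9 were higher and 6 were lower (median log2FC 0.0032), and GRIA1, the AMPA receptor subunit GluA1, was the only member past a fold of 2 (430.5, 569 and 718 CPM in PA against 241, 268 and 314 CPM). Of 12 GABA-A receptor genes, 4 were higher and 5 were lower (median log2FC -0.07). GABRA5, the alpha subunit of extrasynaptic receptors best known from the hippocampus, was higher (301 ± 52.5 against 134 ± 31.2 CPM), and GABRB2, a beta subunit of synaptic receptors, was lower (log2FC -1.05). Of 39 HCN and potassium channel genes, 23 were lower and 9 were higher (median log2FC -0.33). Besides KCNS1 and KCNC1, the ether-a-go-go gene KCNH5 (log2FC -1.72) and the silent subunit gene KCNS2 (-1.43) were lower. KCNA5, a Kv1 channel, was higher with 2.56, 4.54 and 6.73 CPM against 0.573, 0.796 and 1.39 CPM.

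Genes that pattern and wire the cortex were more often higher than lower in PA than in the temporal sum. Of 53 guidance and cell adhesion genes, 26 were higher and 14 were lower (median log2FC 0.23), but against TPG alone 14 were higher and 14 were lower (median log2FC -0.08). The secreted semaphorins SEMA3A and SEMA3D and their receptors, the neuropilins NRP1 and NRP2, were all higher without overlap. SEMA3D had 14.4, 19.5 and 64.3 CPM in PA against 1.95, 4.12 and 5.93 CPM, with its highest mean of 51 sub-regions in PA. SEMA3A had 5.63, 13.8 and 18 against 1.34, 2.12 and 3.01 CPM. NRP1 had 51.1, 61.4 and 98.8 against 15.1, 16.7 and 24.3 CPM, and NRP2 had 80.5, 97.2 and 101 against 29.2, 32.8 and 39.4 CPM. The relation did not extend to the whole family, as SEMA3C (log2FC -1.46) and the Eph receptor gene EPHB6 (-1.69) were lower. Of 27 Wnt pathway genes, 13 were higher and 5 were lower (median log2FC 0.18), and 8 were higher without the block by animal. Against TPG alone, 7 of 25 were higher and 4 were lower (median log2FC 0.06), beside 12.3% and 11.4% of all genes. RSPO3, a secreted enhancer of Wnt signalling, had 19.4, 22.6 and 35.7 CPM against 1.24, 3.49 and 4.28 CPM, and the Wnt antagonist DKK1 had 0.439 ± 0.312 against 1.61 ± 0.465 CPM. Of 18 retinoic acid genes, 7 were higher and 5 were lower (median log2FC 0.30), but against TPG alone 5 were higher and 5 were lower (median log2FC 0.03). The retinoic acid receptor RARB had 5.48, 6.83 and 8.82 CPM against 28.4, 32.5 and 45.1 CPM, and the retinol carrier RBP4 had 73.9 ± 5.56 against 37.1 ± 6.40 CPM. In animals 2, 3, 6 and 7 alone, whose meningeal sums in PA were the lowest, 7 Wnt and 4 retinoic acid genes were higher. There CRABP1 (FDR 0.572), CRABP2 (log2FC 0.83, FDR 0.0506) and ALDH1A3 (FDR 0.332) did not pass. Fewer animals also lose calls by themselves, which cannot be told apart here from a part of meningeal RNA. No share over all genes at any fold is given for these 4 animals to set beside the counts. These animals also differ in their make-up of age and sex from the others.

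Immediate early genes, which neurons induce upon activity, showed no common direction, with 6 of 15 higher and 4 lower (median log2FC 0.17). ARC had 14.2, 31.8 and 38.8 CPM in PA against 39.5, 75.3 and 119 CPM, and EGR2 was lower as well (log2FC -1.09), while FOS (0.76) and BTG2 (1.16) were higher. Without animals 4, 8, 10 and 11, FOS did not pass (log2FC 0.49, FDR 0.103). Of 22 genes linked to Alzheimer disease, which starts in the entorhinal region in humans, 9 were higher and 5 were lower (median log2FC 0.12), none past a fold of 2. TREM2, a microglial receptor, was higher by a log2FC of 0.67, the lipid carrier APOE by 0.42 and MAPT, the tau gene, by 0.22, and the transcription factor MEF2C was lower (-0.61). Against TPG alone, 2 of the 22 genes were higher and 2 were lower (median log2FC 0.02), beside 12.3% and 11.4% of all genes.

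Markers of glia and of the brain's coverings differed as well. All 9 tested microglia markers were higher (median log2FC 0.85), and their summed level was 199 to 422 CPM in PA and 112 to 198 CPM in the temporal sums. Against TPG alone, 5 of the 9 were higher and 0 were lower (median log2FC 0.35), beside 12.3% and 11.4% of all genes. In TPG the sum was 158 to 293 CPM, which overlapped PA. CD74, the chaperone of antigen-presenting molecules, had 34.4, 64.2 and 138 CPM in PA against 8.61, 20.3 and 43 CPM. Of 13 astrocyte markers, 9 were higher and 1 was lower (median log2FC 0.70), with sums of 5358 to 7181 CPM in PA and 4105 to 4926 CPM in the temporal sums. Against TPG alone, 9 of the 13 were higher and 0 were lower, with a smaller median log2FC of 0.36. GFAP, the intermediate filament of astrocytes, had 805, 1116 and 2099.5 CPM in PA against 217, 306 and 460.4 CPM, whereas the glutamate transporters SLC1A2 (244 against 291 CPM) and SLC1A3 (1615 against 1623 CPM) did not pass. Of 11 oligodendrocyte markers, 10 were lower and 0 were higher (median log2FC -0.80), with MBP, the myelin basic protein gene, at 488, 668 and 989 CPM against 1021, 1511 and 1734 CPM and the lowest ratio in animal 2. Precursor markers did not move with them, as 5 of 7 were higher and 1 was lower (median log2FC 0.40), with PCDH15 at 15.1 ± 3.47 against 6.73 ± 0.977 CPM. Of 9 endothelial and pericyte markers, 4 were higher and 1 was lower (median log2FC -0.01). Of 12 general neuron markers, 5 were higher and 6 were lower (median log2FC -0.20). NRGN, the postsynaptic protein neurogranin, had the largest fold of them, at 369, 536 and 644 CPM against 1161, 1331 and 1983 CPM. SLC17A7 went the other way without overlap, at 970, 1063 and 1175 CPM in PA against 702, 770 and 935 CPM.

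Meningeal and fibroblast markers stood out for their spread over animals. Of 10 tested, 9 were higher in PA and 0 were lower (median log2FC 1.56), and their summed level ranged from 49.8 to 538 CPM in PA and from 52.7 to 97.9 CPM in the temporal sums. It was 538 CPM in animal 8, 318 in animal 4, 300.3 in animal 11 and 203 in animal 10, against 119.6 in animal 6, 99.2 in animal 3, 53.2 in animal 2 and 49.8 in animal 7, and in animals 2 and 7 PA was not above the temporal sum. SLC13A4, a sulphate transporter of the leptomeninges, had 0.295, 9.25 and 93.5 CPM in the lowest, the median and the highest PA library. The collagen gene COL1A2 ranged from 1.11 to 59.4 CPM in PA. In animals 2, 3, 6 and 7 alone, 5 of the markers were higher and 1 was lower, with a median log2FC of 0.55. With the same 4 animals, 755 genes were higher and 516 were lower over the whole table at a fold above 2. At any fold, 17 fast-spiking genes and 10 oligodendrocyte markers were lower there, and 8 microglia and 8 astrocyte markers were higher. The share of all genes at any fold is not given for these 4 animals. The part of meningeal tissue in the other differences was not tested further. Choroid plexus markers were low in both groups (sums of 18.3 to 34.8 CPM in PA and 12.2 to 27.4 CPM in the temporal sums, 2 of 6 higher and 1 lower), ependymal markers (3 of 7 higher and 1 lower) summed to 48.9 to 73.4 CPM in PA and 49.9 to 65.6 CPM in the temporal sums, and the single tested blood marker, HBA, did not pass.

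**Figure D3:**
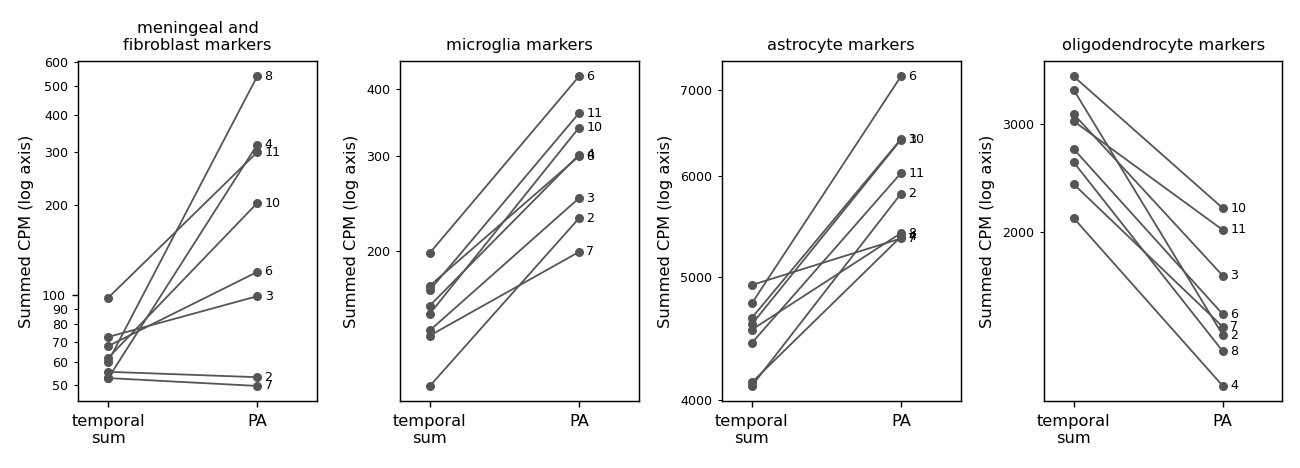
Summed CPM (log axis) of the markers of 4 cell classes in the temporal sum and in PA, with 1 line per animal and the animal's number beside its PA value. Microglia and astrocyte sums were higher and oligodendrocyte sums lower in PA in 8 of 8 animals, whereas the meningeal sum was higher in 6 and varied from 49.8 to 538 CPM in PA.

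**Figure D4:**
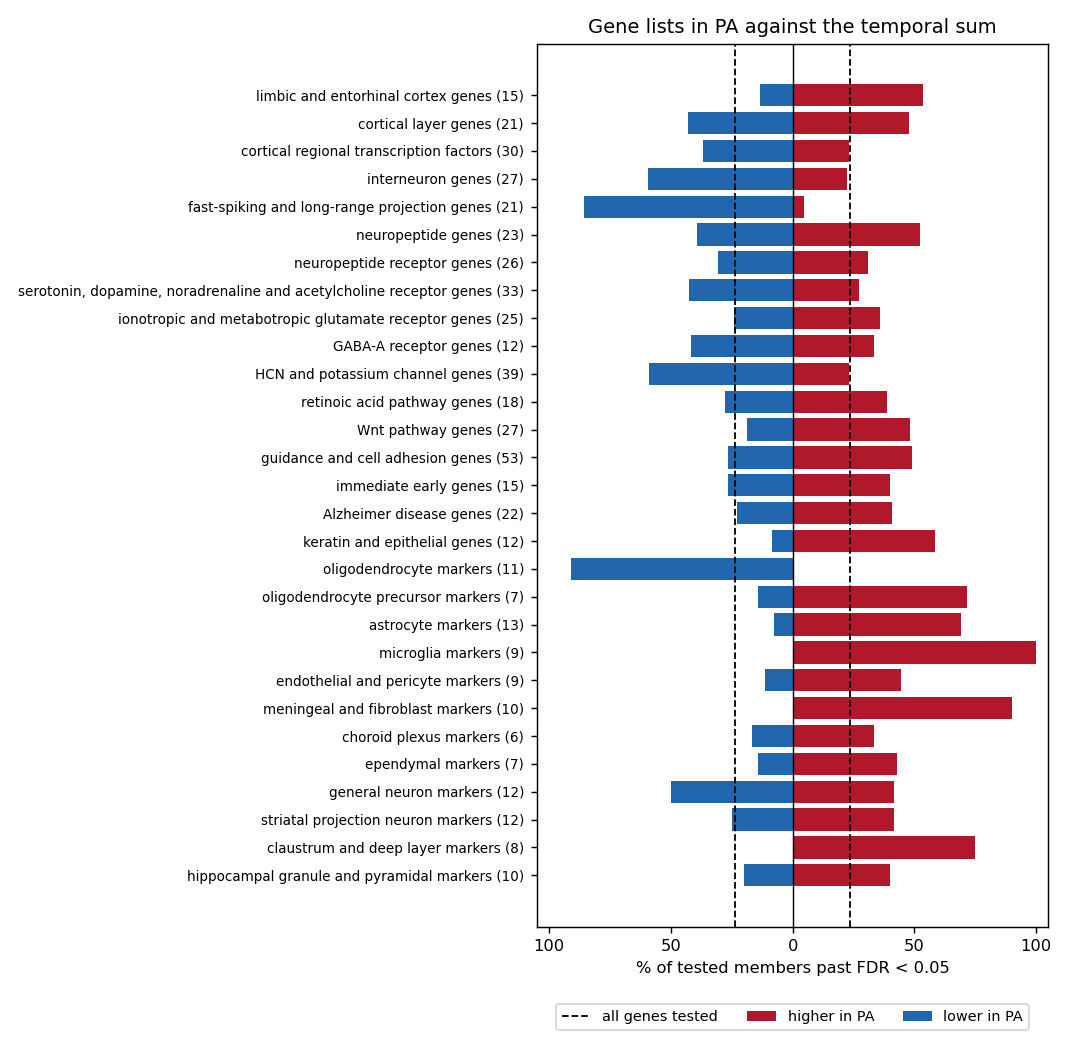
Share of tested members of each gene list (number in brackets) that passed FDR < 0.05 higher (red, to the right) or lower (blue, to the left) in PA than in the temporal sum, with dashed lines at the 23.6% higher and 23.5% lower over all genes tested. Fast-spiking genes and oligodendrocyte markers lay almost wholly to the left, and microglia and meningeal markers to the right.

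To find out whether a single gyrus carried these differences, PA was compared with each gyrus in a fit over the 5 sub-regions. Of 15589 genes tested, 330 were higher than in TPG (2.12%) and 301 were lower (1.93%). The counts were 846 (5.43%) and 500 (3.21%) against STG, 853 (5.47%) and 508 (3.26%) against ITG, and 1268 (8.13%) and 684 (4.39%) against OTG. These comparisons share the PA libraries. The Euclidean distance of PA to each gyrus, over log2 CPM within an animal, was 70.8 ± 4.25 (SD, n = 8) for TPG, 88.7 ± 3.27 for STG, 93.0 ± 9.07 for ITG and 101 ± 6.94 for OTG. TPG was the nearest gyrus in 8 of 8 animals in each of the 3 pairs it belonged to, and STG was nearer than OTG in 8 of 8 (p = 0.0078 for each in a two-sided exact permutation test that flipped the signs of the differences, the smallest p that 8 animals allow, and 0.012 after adjustment over 6 pairs). The difference between ITG and STG (4.28 ± 9.61, exact p = 0.273) was within the spread of the animals, and that between OTG and ITG (8.23 ± 9.54) did not pass (exact p = 0.0625, adjusted 0.075).

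The fast-spiking difference was seen against 3 of the gyri. Of the 21 genes, 17 were lower in PA than in STG, 17 than in ITG and 18 than in OTG (against 21.3%, 22.5% and 27.7% of all genes, with 22.5%, 23% and 27.8% higher), but against TPG 5 were lower and 5 were higher (11.4% and 12.3% of all genes), with a median log2FC of -0.06. PVALB had 2.37 to 11 CPM in TPG and 2.28 to 6.73 CPM in PA, which overlapped, against 27.3 to 61.5 CPM in STG, 23 to 54.6 CPM in ITG and 52.1 to 79.4 CPM in OTG. Its log2FC in PA was -0.44 against TPG (FDR 0.15), -3.29 against STG, -3.19 against ITG and -3.92 against OTG. SCN1A (log2FC -0.21, FDR 0.263) likewise did not pass against TPG, while SYT2 (-1.29) and KCNS1 (-1.87) did. Oligodendrocyte markers turned their direction. Of 11, 11 were lower in PA than in STG, 11 than in OTG and 10 than in ITG, but 10 were higher than in TPG, where the median log2FC was 0.94. Their summed level was 526 to 1146 CPM in TPG, 1125 to 2172 CPM in PA, 2749 to 4199.8 CPM in STG, 2061 to 4585 CPM in ITG and 2612 to 5462 CPM in OTG. The lower level of MBP in PA therefore held only against the 3 gyri other than TPG, against which MBP was higher by a log2FC of 0.91.

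Some other groups kept their direction against TPG, where 12.3% of all genes were higher and 11.4% were lower. Interneuron genes were lower in 17 of 26, HCN and potassium channel genes in 19 of 39, and meningeal markers were higher in 7 of 10. Other groups did not. Besides the guidance genes, glutamate receptors were higher in 2 and lower in 7 of 25 (median log2FC -0.19), neuropeptide genes were higher in 6 and lower in 9 of 22 (0.05), and claustrum and deepest layer genes were higher in 3 and lower in 3 of 8 (0.20). Of 7 oligodendrocyte precursor markers, 2 were higher and 0 were lower than in TPG (median log2FC -0.01). RSPO3 (log2FC 2.39), SEMA3A (1.91), BCL11B (1.69), RELN (1.20) and NR2F2 (1.10) were higher than in TPG, and HTR2A (-2.24), CBLN2 (-1.76) and RORB (-2.32) were lower. By an F test over the 5 sub-regions at FDR < 0.05 and a fitted fold above 2 against each gyrus, 264 genes were specifically higher in PA (1.69%) and 197 specifically lower (1.26%). The higher set included RAB44, KRT5, TFAP2D, AP1M2, IRS4, PKHD1, SFN, DSP, DDC, TRIM58, RSPO3, SEMA3A and SEMA3D, and the lower set TESPA1, KCNS1, FAP, FOXP2, RORB and HTR2A. GRIA1 (log2FC 0.40 against TPG), GABRA5 (0.54) and NRP2 (0.81) were higher than in TPG but under a fold of 2, and RBP4 (0.05, FDR 0.869) did not pass.

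**Figure D5:**
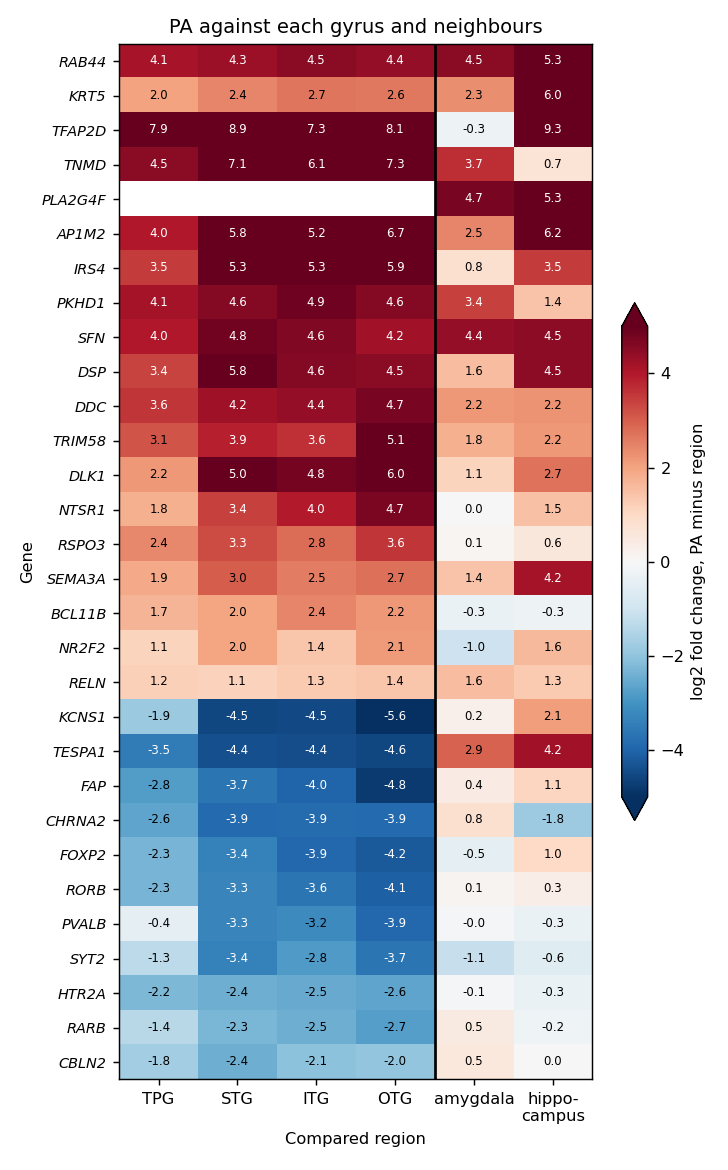
Fitted log2 fold change of PA against each temporal gyrus and against the amygdala and the hippocampus (columns) for the marker, leading and other named genes (rows), with red for higher and blue for lower in PA, and colours capped at 5. PLA2G4F did not pass the filter on low counts in the fit over 5 sub-regions. PVALB was near 0 against TPG, and TFAP2D, NTSR1 and RSPO3 were near 0 against the amygdala.

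PA was also set beside its other neighbours in the medial temporal lobe. Genes high in PA were shared with AMY or the hippocampus to differing degrees. RAB44, SFN and KRT5 were higher in PA than in both (log2FC 4.53, 4.38 and 2.31 against AMY, 5.33, 4.46 and 6.04 against the hippocampus). For RSPO3 (25 CPM in AMY, log2FC 0.08) and BCL11B (14.5 CPM, log2FC -0.33) the test against AMY was not passed, and NR2F2 was lower in PA than in AMY (log2FC -1.02). Of 10 markers of hippocampal granule and pyramidal cells, 4 were higher and 2 were lower in PA than in the temporal sum (median log2FC 0.0044). FIBCD1, a chitin-binding membrane protein and a marker of hippocampal pyramidal cells, had 3.72, 8.50 and 19.4 CPM in PA and a mean of 23.7 CPM in the hippocampus, and NRP1 had 148 CPM there, both above PA (log2FC -1.37 and -1.17). Among the genes low in PA, PVALB, RORB and HTR2A did not pass the test against AMY (log2FC -0.04, 0.12 and -0.08). Both comparisons share the PA libraries.

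The contrast of PA with the temporal sum was finally compared between ages and sexes by an interaction term. Between mid-aged and young animals the log2FC differed in 7 genes at FDR < 0.05, 6 of them higher (0.035%) and 1 lower (0.00583%) in the mid-aged, and 1801 genes (10.5%) had an unadjusted p under 0.05. SSTR1 was higher in PA by a mean log2 ratio of 1.85 (1.64 to 2.24) in the 4 mid-aged and of 0.48 (0.25 to 0.74) in the 4 young animals (range over animals in brackets), an interaction of 1.35 (edgeR, FDR 0.014). GRB14, an adaptor that dampens insulin receptor signalling, was at 1.03 (0.53 to 1.68) in the mid-aged and -0.12 (-0.38 to 0.22) in the young, and CLIC6, a chloride channel protein, at 1.07 (0.63 to 1.59) and -1.14 (-1.66 to -0.71). CLIC6 is also on the list of choroid plexus markers, whose temporal sum was highest in animal 7 (27.4 CPM), where CLIC6 had 11.7 CPM, and the part of such tissue in its value was not tested. HSD11B1, the enzyme that regenerates active cortisol, went the other way, with -1.76 (-2.52 to -0.90) in the mid-aged and 0.63 (0.49 to 0.81) in the young. The meningeal sum in PA was above 200 CPM in 3 of the 4 young animals (4, 8 and 10) and 1 of the 4 mid-aged animals (11), and its part in the age values was not tested. The count of 7 rested on single animals, as it was 0 without animal 3 or animal 11, 1 without animal 7 or animal 10, 2 without animal 2, 4 without animal 8, 106 without animal 6 and 118 without animal 4. Between females and males edgeR called 0 genes, with 672 (3.92%) at an unadjusted p under 0.05, and DESeq2 called 0 as well.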

How the data were processed

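Total RNA was depleted of ribosomal RNA and sequenced from directional libraries. The authors trimmed the reads of low-quality samples with Trim Galore 0.4.4, aligned all reads with HISAT2 2.0.5 to the macaque assembly Mmul 8.0.1 and counted them per Ensembl 91 gene with HTSeq 0.6.1, and deposited raw counts of 30807 genes in 408 libraries. Strand and overlap options of the counting were not given in the sources used here, so that overlapping genes and near-identical copies may share counts. Symbols came from a reference table (17572 genes) or, failing that, from pairs of gene ID and symbol given by the study (583), and where a symbol was shared the ID with most counts was used.

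The counts of the 4 gyri were summed within each animal. Genes were filtered with filterByExpr and tested with edgeR 4.0.16 (R 4.3.3) by the quasi-likelihood F test with TMM scaling and the animal as block, and FDR is the Benjamini-Hochberg adjusted p over all genes tested. "Higher" and "lower" for a named gene or a member of a list mean FDR < 0.05, and SE was the log2FC over the square root of F. CPM used TMM-scaled library sizes, pooled fits for each comparison giving slightly different CPM for the same libraries. PA and each gyrus were fitted together over 5 sub-regions (40 libraries), and PA, the temporal sum, the amygdala and the hippocampus in another fit. Age and sex were tested as interactions with the contrast. The animals pair the samples by design, and the deviations of PA and the temporal sum correlated within each animal (r from 0.45 to 0.58 over genes, each animal matching itself best in 8 of 8).

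The markers, gene lists, comparisons and tests were chosen with earlier results of these data known, so that no list is independent evidence. Named genes were RAB44 and KRT5, the 12 genes a direction with a symbol, at least 1 CPM in the higher group, 1 direction in all 8 animals and the largest log2FC, up to 6 passing members of each list with the largest log2FC, and up to 3 genes a direction for each interaction. BCAN, CCK, NPY, SST, SLC32A1, CDH1, MAPT, ADORA2A, PPP1R1B, SLC1A2 and SLC1A3 are list members named outside that rule, after their values were seen. With no genome of the assembly used here, no sequence or coordinate is given. The 33 ATAC-seq samples and 8 midbrain RNA-seq samples were not analysed here.

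The fit was tested on simulated data. For the comparison with the temporal sum, on 16760 genes, 87 of 100 genes changed by a fold of 2 and 95 of 100 changed by a fold of 4 were recovered, with 10 false calls. The simulated counts held no differences between animals and no correlation of PA with its paired temporal sum. These figures therefore do not cover the paired structure of the real data. Alternatives were DESeq2 1.42.0, its size factors, other filters, no block, the gyri as separate libraries or as a rounded mean, each gyrus left out, other fold thresholds and each animal left out. Leaving out animals 4, 8, 10 and 11 together, and the distances of PA to the gyri (Euclidean and from Pearson's correlation) with their tests, were not planned beforehand and were added after seeing the data. Leaving out these animals also loses calls through the smaller number of animals alone. The share over all genes at any fold is not given for that fit, so that its list counts cannot be set beside it. Each animal gave 1 library per sub-region, and depth varied less than 2-fold within PA.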

Additional observations from a re-analysis of the deposited data

Results flagged for a closer look

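In 6 of 161 named genes that could be tested for it, the within-animal log2 ratio of PA to the temporal sum lay far from the other 7 animals in 1 animal (Dixon's test, which chance passes in about 1 in 20 groups). Animal 7 had a ratio of 3.79 for HTR2C, against 1.35 to 2.20 in the others, and of 0.055 for the wolframin gene WFS1, against 0.56 to 0.95. Animal 10 had a ratio of -3.33 for HTR3A, against -1.90 to -0.92. Animal 2 stood apart in 3 myelin genes, with -1.93 for MAG (others -0.96 to -0.63), -1.77 for MAL (others -1.04 to -0.42) and -1.56 for MBP (others -1.08 to -0.76). The direction was the same in the other animals for all 6 genes.

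The PA contrast differed between the age stages (interaction term in edgeR, mid-aged minus young, 4 animals each) for CLIC6 by 2.31, for SSTR1 by 1.35, for GRB14 by 1.15, for the adhesion protein gene NECTIN1 by 0.94, for RGS4, a regulator of G protein signalling, by 0.75 and for ARPP21, a neuronal phosphoprotein, by 0.66 on the log2 scale. For HSD11B1 the difference was -2.26. CLIC6 was the gene with the lowest FDR together with SSTR1 and ARPP21 (0.014), and HSD11B1, NECTIN1 and RGS4 were at 0.0488. For CLIC6, NECTIN1, ARPP21 and HSD11B1 the ratio had opposite signs in all animals of the 2 stages. CLIC6 is itself on the list of choroid plexus markers, whose part in its value was not tested. These calls were lost in most fits that left out 1 animal.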

How the results depend on the processing

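The main counts of 917 higher and 562 lower genes stayed within 1.5 times under DESeq2 (883 and 550), its size factors (918 and 559), other filters, separate or averaged gyri and each gyrus left out, and lay between 871 and 918 and between 542 and 581 with 1 animal left out. With separate gyri they were 660 and 465, and with averaged gyri 721 and 464. Leaving out OTG gave 675 and 454, and leaving out TPG gave 1229 and 652. By construction they moved without the fold threshold (4045 and 4031) and at a fold above 4 (235 and 147). Genes specifically higher in PA rose from 264 to 436 with a filter of more than 1 count in at least 3 libraries. Their number was 236 to 258 with 1 animal left out, and that of the specifically lower genes 193 to 218. With 1 animal left out, PA was higher in 1202 to 1307 genes and lower in 665 to 696 against OTG, 794 to 865 and 493 to 540 against ITG, 799 to 852 and 474 to 527 against STG, and 300 to 330 and 293 to 315 against TPG.

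Without the replicate block, that is without pairing by animal, 670 genes were higher and 454 lower. The counts were 1117 and 625 against OTG, 736 and 454 against ITG, 726 and 449 against STG, 257 and 247 against TPG, and 207 and 178 for the specific genes.

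The age interaction was called in 7 genes by edgeR and in 111 by DESeq2, and in 0 to 118 with 1 animal left out. The sex interaction was called in 0 genes, and in 0 to 14 with 1 animal left out (14 without animal 8, 2 without animal 4 and 1 without animal 11). The cause was not tested in either case. Of the values of named genes under the alternatives, 3407 kept their call, 67 lost it, 6 gained it and 0 turned direction. Of the medians of the gene lists under the alternatives, 9 moved by more than the spread over animals, 471 did not and 0 past 0.1 changed sign, and of the counts of list members 43 moved by over 1.5 times and 917 did not. The moved medians included that of the keratin and epithelial genes (1.28, and 1.98 with TPG left out) and that of the oligodendrocyte markers (-0.80, then -1.10 with TPG left out and -0.53 with OTG left out). Depth limits the genes at 0 counts in PA to bounds.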
